A study of Homo sapiens with 4 samples.

Results

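The collagen chain genes of cells labelled SKOV3, a human ovarian cancer cell line, were followed in cells exposed to the ginseng saponin 20(S)-Rg3 and in unexposed cells. Members were all genes of the deposited table named COL, a number, A and a number, with nothing after it, which gave 44 of 40205 genes. The Rg3 group held 2 libraries from cells kept for 24 h in 80 µg/mL of the saponin, and the control group held 2 libraries from the same line labelled as negative control. All cells were grown in RPMI medium with fetal bovine serum. Total RNA was depleted of ribosomal RNA before library construction, so RNA without a poly(A) tail was also sequenced. Whether replicate libraries trace back to separate cultures is not stated, and the protocol speaks of pooled RNA. Every p-value below therefore reflects only how far 4 libraries spread, a spread that could be technical.

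Collagens are the main structural proteins of the extracellular matrix. Chains made of Gly-X-Y repeats wind around each other in groups of equal or different chains, and the kind of chain decides whether the protein forms fibrils, the mesh of a basement membrane, beaded filaments or a membrane-bound collagen. In ovarian tumours much of the fibrillar collagen is made by stromal fibroblasts, whereas carcinoma cells are known to make basement membrane components. Because a heterotrimer joins different chains, the presence or absence of a partner is given beside such chains.

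Depth ran from 24482846 to 30132517 counts per library, and 21917 to 22776 genes had at least 1 count. Collagen chains took 0.171% and 0.137% of all counts in the Rg3 libraries, against 0.170% and 0.158% in the control libraries. The exact 95% binomial intervals were 0.170% to 0.173% and 0.135% to 0.138% for Rg3, and 0.169% to 0.172% and 0.156% to 0.159% for control. These intervals cover counting error only. Rg3 replicate 2 was the lowest of the 4 libraries and Rg3 replicate 1 lay next to control replicate 1, so the groups overlapped. The 6 chains with the most counts held 84.1% to 86.2% of the collagen counts in every library.

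Of the markers fixed for the line, KRT7, KRT8 and KRT18, keratins of simple epithelia, lay between 1557 and 2817 CPM in all 4 libraries (CPM, counts scaled to a common library size with TMM). The epithelial markers EPCAM and KRT19 were absent or nearly so, with 0 counts of EPCAM in every library and 0, 0, 2 and 0 counts of KRT19 in Rg3 replicates 1 and 2 and control replicates 1 and 2. ERBB2, the receptor gene that is amplified in SKOV3, stood at 53.5 and 45.2 CPM with Rg3 and at 50.6 and 48.1 CPM in controls. The ovarian lineage markers PAX8 and WT1 had 8 to 18 and 0 to 3 counts per library. MSLN, the remaining marker of the list, was clearly present, at 66.4 and 43.0 CPM with Rg3 and at 63.2 and 54.2 CPM in controls. CDKN2A, named after its values were seen and known to be deleted in SKOV3, had 2151 and 1778 counts with Rg3 and 1692 and 1733 in controls. The counts of EPCAM, KRT19 and CDKN2A go against what is known of SKOV3 in all 4 libraries, in both groups alike. Whether the level of ERBB2 is that of an amplified gene was not tested. SKOV3 is used here only as the label of the cells. Of 9 fibroblast and smooth muscle markers, PDGFRA and POSTN had 0 counts throughout, and the summed level of the list was 36.7 and 31.2 CPM with Rg3 and 31.9 and 34.6 CPM in controls, most of it PDGFRB at 27.7 to 34.3 CPM. Within this list ACTA2, smooth muscle actin, stood at 1.17 and 1.66 CPM with Rg3 and at 2.44 and 3.22 CPM in controls (log2 fold change −1.01, unadjusted p = 0.0141, edgeR adjusted p = 0.921). DCN, decorin, had 5 and 2 counts with Rg3 and 9 and 20 in controls. The 20 counts were in control replicate 2, a library in which 19 genes had at least 20 counts but were nearly absent elsewhere. In ACTA2 and DCN the Rg3 libraries lay below the controls. THY1, with 2 and 4 counts with Rg3 and 1 and 1 in controls, lay above them. PDGFRB, FAP and TAGLN overlapped between groups, at log2 fold changes of 0.11, 0.38 and 0.07, and LUM had 2 counts in all. Of the 20 tested collagen chains 6 lay below and 3 above, where 17% and 15.3% of all genes tested did. The part of fibroblast or smooth muscle cells in the collagen values was not tested. Of 4 endothelial markers KDR had 0 counts, and the list summed to 16.9 and 16.5 CPM with Rg3 and to 18.8 and 19.8 CPM in controls. Most of it was CDH5, at 16.2 and 16.2 CPM with Rg3 and at 17.9 and 19.5 CPM in controls (log2 fold change −0.21). PECAM1 and VWF had 1 to 7 and 6 to 17 counts per library.

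Promoter sequence is shown first for the main basement membrane pair, COL4A1 and COL4A2, which lie head to head and whose counts stood in different ratios from library to library. In RefSeq (GRCh38.p14) the start of COL4A1, on the minus strand, and that of COL4A2, on the plus strand, are 126 bases apart. COL4A6 and COL4A5 are arranged in the same way with 379 bases between starts, and COL4A4 and COL4A3 with 418. The stretch between COL4A1 and COL4A2 (chr13:110307158-110307283, plus strand, GRCh38.p14) is printed with the 126 bases before the start of COL12A1 (chr6:75206054-75206179, minus strand) and of COL7A1 (chr3:48595330-48595455, minus strand), chains with high counts that were higher in Rg3 replicate 1 than in Rg3 replicate 2. Capitals mark CCAAT, known as the CCAAT box, the letters GGGCGG of a GC box, and the letters TATAAA of a TATA box, each searched on both strands, and no marked stretches overlap.
COL4A1-COL4A2: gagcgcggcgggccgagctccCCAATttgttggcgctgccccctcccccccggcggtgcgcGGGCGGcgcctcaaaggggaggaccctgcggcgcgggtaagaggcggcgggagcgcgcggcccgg
COL12A1: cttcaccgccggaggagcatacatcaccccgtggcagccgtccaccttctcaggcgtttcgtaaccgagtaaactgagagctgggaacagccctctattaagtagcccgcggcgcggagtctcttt
COL7A1: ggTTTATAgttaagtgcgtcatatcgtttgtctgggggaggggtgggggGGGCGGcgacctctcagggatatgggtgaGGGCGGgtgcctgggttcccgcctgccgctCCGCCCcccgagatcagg

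The shared stretch held 1 CCAAT and 1 GGGCGG, the COL7A1 stretch 3 GGGCGG and 1 TATAAA, and the COL12A1 stretch none of these, with G and C at 80.2%, 65.9% and 58.7% of the bases in the order shared stretch, COL7A1 and COL12A1. Of 27305 RefSeq promoters, the same 126 bases held CCAAT in 21.9%, GGGCGG in 34.6% and TATAAA in 6.23%. RefSeq promoters were matched for 32 of the 44 chains, and among these CCAAT stood in 7, GGGCGG in 15 and TATAAA in 3. A match describes letters only.

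Of the 44 chains, 37 had at least 1 count and 27 had counts in every library, while 20 passed the low-count filter and entered the test. A mean of at least 1 CPM was reached by 19. COL9A1, COL10A1, COL17A1, COL21A1, COL22A1, COL6A5 and COL6A6 had 0 counts in all 4 libraries. The rule of 3 counts puts the limit of a zero at 0.0974 and 0.125 CPM in the Rg3 libraries and at 0.122 and 0.114 CPM in the controls. The other 17 chains that were not tested had 1 to 40 counts over all libraries. Of these, COL24A1 (29 counts in all), COL26A1 (20), COL15A1 (13), COL14A1 (12), COL23A1 (10), COL5A3 (6) and COL8A2 (5) were seen in every library. The rest were seen in only 1 or 2 libraries, and among them were COL1A2, COL2A1 and COL3A1, major fibrillar chains of skin, bone and cartilage. Counts were not divided by transcript length, so levels of different chains are not ranked.

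**Figure D1:**
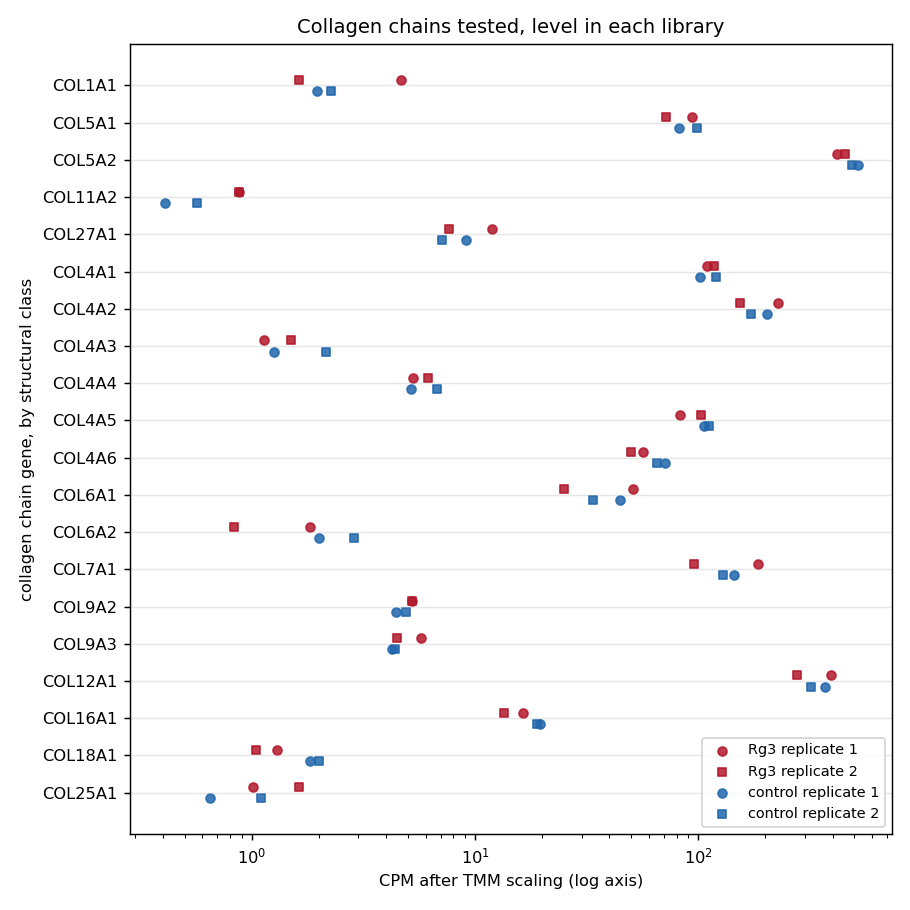
CPM after TMM scaling (log axis) of the 20 tested collagen chains, arranged by structural class, with 1 point for each library (Rg3 above, control below in each row). In 11 chains the libraries of the groups overlap, and COL7A1 and COL6A1 are highest in Rg3 replicate 1 and lowest in Rg3 replicate 2. CPM is not divided by length, so rows are not compared with each other.

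No collagen chain passed the test of Rg3 against control. In bulk RNA, fewer cells that express a chain and less of its RNA per cell cannot be told apart. With edgeR's quasi-likelihood test and Benjamini-Hochberg adjustment over all 16323 genes tested, 0 of 20 chains were called higher, where 0.0306% of all genes were, and 0 were called lower, where 0% of all genes were. The adjusted p was 0.999 for every chain. At an unadjusted p under 0.05 there was 1 chain, COL4A6, on the lower side, against 1.83% of all genes higher and 2.9% lower. DESeq2 called 0 chains (COL11A2 had no adjusted p there), where 0.26% and 0.12% of all its genes were called higher and lower. At an unadjusted DESeq2 p under 0.05 there were 0 chains, against 430 of the 16323 genes that edgeR tested. The 20 chains had 9 positive and 11 negative log2 fold changes with a median of −0.04, against a median of 0.01 over all genes tested.

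Calls among the chains appeared only where 1 library or the filter was left out. Without Rg3 replicate 1, 0 chains were called higher and 3 lower (COL4A6, COL6A1 and COL7A1), where 2.53% and 2.69% of all genes were called. Without Rg3 replicate 2, 1 chain was called higher (COL1A1) and 0 lower, where 1.8% and 0.879% of all genes were. Without control replicate 1, 0 were called higher and 1 lower (COL6A3), against 0.247% and 0.388% of all genes, and without control replicate 2 there were 0 and 0, against 0.184% and 0.107%. Without the low-count filter 0 were called higher and 1 lower (COL6A3 again), against 0.351% and 0.483%. With the replicate number as a block there were 0 and 0, against 0.423% and 0.527%. COL4A6, COL6A1 and COL7A1 were each lowest in Rg3 replicate 2, and COL1A1 was high in Rg3 replicate 1 only. Fits without an Rg3 library took their spread from the controls, which differed less from each other than the Rg3 libraries did.

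The 95% intervals give the size of change that these libraries leave possible. For the 10 chains with a mean of at least 10 CPM, the largest log2 fold change in either direction was −0.36, and the intervals ran from −0.77 at the lowest to 0.70 at the highest. Over all 20 chains they reached −1.82 and 1.78, in COL6A2 and COL11A2. A chain that did not pass is therefore not shown to be equal in both groups.

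**Figure D2:**
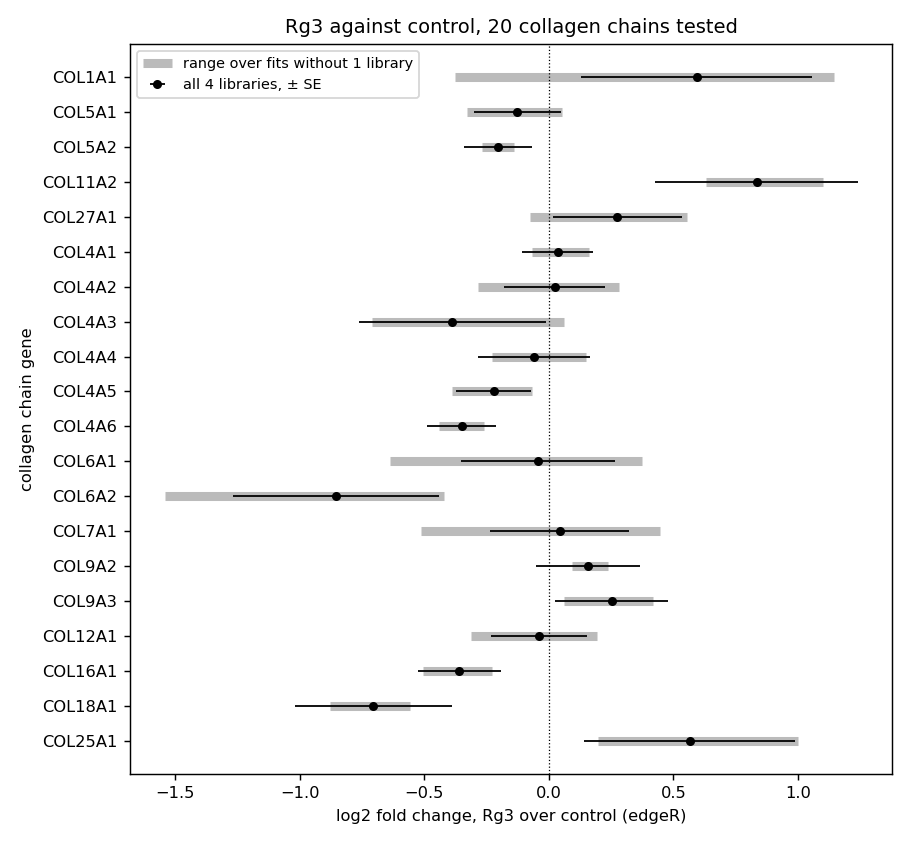
Log2 fold change of Rg3 over control from edgeR for the 20 tested chains (black points, bars ± SE), with the range over the 4 fits that each left out 1 library (grey). The grey range of 10 chains crosses 0. Those of COL4A5, COL4A6, COL5A2, COL6A2, COL16A1 and COL18A1 stay below it, and those of COL9A2, COL9A3, COL11A2 and COL25A1 stay above it.

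Type IV collagen is the mesh of basement membranes, and all 6 of its chains were tested, with 2 positive and 4 negative log2 fold changes. COL4A1 and COL4A2 encode the chains of the form found in nearly all basement membranes. COL4A1 stood at 109.6 and 118 CPM with Rg3 and at 102 and 120.3 CPM in controls, a log2 fold change of 0.04 (SE 0.14). COL4A2 stood at 228 and 154 CPM with Rg3 and at 203 and 173 CPM in controls, a log2 fold change of 0.02 (SE 0.20). In both chains the groups overlapped, and COL4A2 alone of the pair was clearly higher in Rg3 replicate 1 than in Rg3 replicate 2. The antisense gene COL4A2-AS1 had 5 and 3 counts with Rg3 and 0 and 0 in controls, few beside the 3711 to 7027 of COL4A2, though the strand setting of the counting is not given in the sources used here.

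COL4A5 and COL4A6 are joined in a form of type IV collagen known from epithelial and smooth muscle basement membranes. COL4A6 stood at 56.8 and 50.1 CPM with Rg3 and at 70.7 and 65.5 CPM in controls. Both Rg3 libraries lay below both controls, with a log2 fold change of −0.35 (SE 0.14, unadjusted p = 0.0381, edgeR adjusted p = 0.999). Fits with 1 library left out gave −0.44 to −0.26, and in the one without Rg3 replicate 1 it was called lower (adjusted p = 0.0371). COL4A5 stood at 83.0 and 103 CPM with Rg3 and at 106 and 111 CPM in controls, again with no overlap, at a log2 fold change of −0.22 (SE 0.15), and leaving out Rg3 replicate 1 brought it to −0.069 and Rg3 replicate 2 to −0.39. COL4A3 and COL4A4, whose chains join with that of COL4A5 in the kidney glomerulus, were low, with COL4A3 at 35 and 36 counts with Rg3 and 31 and 57 in controls. COL4A4 had 163 and 148 counts with Rg3 and 127 and 178 in controls. Both overlapped between groups. The log2 fold change was −0.39 (SE 0.38) for COL4A3 and −0.06 (SE 0.23) for COL4A4.

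The ratio of partner chains within a library needs no length correction when it is compared between libraries. COL4A2 had 2.08 and 1.30 counts per count of COL4A1 in Rg3 replicates 1 and 2, and 1.996 and 1.44 in control replicates 1 and 2. The ratio thus differed within each group by more than the exact 95% counting intervals, which were 1.998 to 2.17 and 1.24 to 1.37 for Rg3 and 1.90 to 2.09 and 1.37 to 1.502 for control, and the groups overlapped. COL4A5 had 1.46 and 2.06 counts per count of COL4A6 with Rg3, and 1.502 and 1.70 in controls. COL5A2 had 4.46 and 6.34 counts per count of COL5A1 with Rg3, and 6.32 and 4.95 in controls. In each of these 3 pairs the Rg3 libraries stood at the lower and the upper end of the 4 values, so no shift of these pairs between the groups could be read. The same held for COL9A3 over COL9A2, at 1.11 and 0.857 with Rg3 and 0.954 and 0.892 in controls. COL4A4 had 4.66 and 4.11 counts per count of COL4A3 with Rg3, and 4.10 and 3.12 in controls. There both Rg3 libraries lay above both controls, but the counting intervals of all 4 libraries overlapped.

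**Figure D3:**
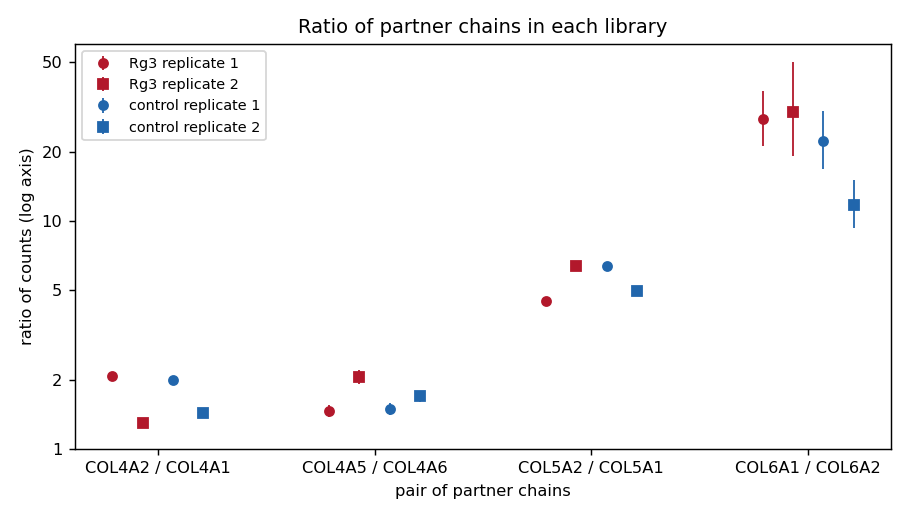
Ratio of counts of partner chains (log axis) in each of the 4 libraries, Rg3 left of control, with exact 95% counting intervals. The COL4A2 to COL4A1 ratio is 2.08 and 1.996 in replicate 1 of Rg3 and control and 1.30 and 1.44 in replicate 2, and the COL6A1 to COL6A2 ratio is lowest in control replicate 2.

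Among the 11 fibrillar chains 5 were tested. COL5A1 and COL5A2 encode the chains of type V collagen, which starts and limits the growth of collagen I fibrils. COL5A2 stood at 419 and 456 CPM with Rg3 and at 518 and 490.4 CPM in controls, without overlap, at a log2 fold change of −0.21 (SE 0.14). COL5A1 stood at 93.9 and 71.9 CPM with Rg3 and at 82.0 and 99.0 CPM in controls, where the groups overlapped (log2 fold change −0.13, SE 0.17). The type V pair was thus present at 1732 or more counts in every library, whereas COL5A3 had 3 and 1 counts with Rg3 and 1 and 1 in controls.

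In its usual form type I collagen is made of COL1A1 and COL1A2 chains, of which COL1A2 was almost absent. COL1A1 had 144 and 39 counts with Rg3 and 48 and 60 in controls. Only Rg3 replicate 1 was high and Rg3 replicate 2 was the lowest of the 4 libraries, so the log2 fold change of 0.59 (SE 0.46) rested on 1 library. It was 1.15 without Rg3 replicate 2, where COL1A1 was called (adjusted p = 0.0453), and −0.38 without Rg3 replicate 1. COL1A2 had 0 and 0 counts with Rg3 and 0 and 2 in controls, and COL3A1, the chain of type III collagen, had 0 and 0 with Rg3 and 0 and 4 in controls.

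COL27A1, a fibrillar chain of cartilage, stood at 11.8 and 7.64 CPM with Rg3 and at 9.09 and 7.08 CPM in controls (log2 fold change 0.27, SE 0.26). COL11A2, a chain of type XI collagen of cartilage, had 27 and 21 counts with Rg3 and 10 and 15 in controls. COL11A2 was higher in both Rg3 libraries than in both controls, at a log2 fold change of 0.83 (SE 0.41, unadjusted p = 0.077), yet its partner COL11A1 had 1 and 3 counts with Rg3 and 0 and 0 in controls. COL24A1 had 11 and 9 counts with Rg3 and 4 and 5 in controls and was not tested.

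Type VI collagen forms beaded filaments from the chains of COL6A1, COL6A2 and COL6A3. COL6A1 stood at 50.8 and 25.1 CPM with Rg3 and at 44.6 and 33.8 CPM in controls. The Rg3 libraries enclosed both controls, with a log2 fold change of −0.04 (SE 0.31). Leaving out Rg3 replicate 2 gave 0.38, and leaving out Rg3 replicate 1 gave −0.64, where COL6A1 was called lower (adjusted p = 0.0352). COL6A2 had 56 and 20 counts with Rg3 and 49 and 76 in controls, so after scaling both Rg3 libraries lay below both controls, at a log2 fold change of −0.85 (SE 0.41, unadjusted p = 0.0753). For COL6A2 the value ran from −1.54, with Rg3 replicate 1 left out, to −0.42, with Rg3 replicate 2 left out. It was −0.56 without control replicate 2, the library with the highest COL6A2 level. COL6A1 had 27.9 and 30.2 counts per count of COL6A2 with Rg3, and 22.4 and 11.8 in controls. Both Rg3 ratios thus lay above both control ratios. The counting interval of control replicate 1 (16.8 to 30.5) overlapped those of both Rg3 libraries, while control replicate 2 (9.30 to 15.1) stood below the other 3.

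COL6A3 had 0 counts in both Rg3 libraries and in control replicate 1, and 40 counts in control replicate 2. It did not pass the filter with all 4 libraries. In edgeR without the low-count filter it was called lower, with an adjusted p of 9.09e-07, and without control replicate 1 with 4.00e-07, and both calls rested on control replicate 2. That library also held all counts of COL1A2 and COL3A1. It had 19 genes with at least 20 counts that had at most 1 count in the other 3 libraries together, against 2, 0 and 0 such genes in Rg3 replicate 1, Rg3 replicate 2 and control replicate 1. Among the 19, named after their values were seen, were COL6A3 itself, the steroid synthesis genes STAR (145 counts) and HSD3B2 (48), and the haemoglobin gene HBB (79). Whether the COL6A3, COL1A2 and COL3A1 counts of control replicate 2, or part of its COL6A2 counts, came from its own cells was not tested.

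Type VII collagen, the anchoring fibril that ties an epithelial basement membrane to the tissue beneath, comes from COL7A1 alone. COL7A1 stood at 186 and 95.4 CPM with Rg3 and at 144 and 129 CPM in controls. The mean of 141 ± 64.1 CPM with Rg3 and of 137 ± 10.6 CPM in controls (SD, n = 2 each) hid a difference of 1.95-fold between the Rg3 libraries. The log2 fold change was 0.04 (SE 0.28). Leaving out Rg3 replicate 2 moved it to 0.45, and leaving out Rg3 replicate 1 moved it to −0.51, at which COL7A1 was called lower (adjusted p = 0.0257).

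Of 10 FACIT chains, which sit on the surface of fibrils, 4 were tested. COL12A1, the chain of type XII collagen, stood at 394 and 277 CPM with Rg3 and at 371 and 319 CPM in controls. The Rg3 libraries again enclosed the controls, at a log2 fold change of −0.04 (SE 0.19). COL16A1 stood at 16.4 and 13.5 CPM with Rg3 and at 19.4 and 19.0 CPM in controls, without overlap, at a log2 fold change of −0.36 (SE 0.17, unadjusted p = 0.0662), or −0.23 without Rg3 replicate 2. COL9A2 and COL9A3, chains of the cartilage collagen IX, were slightly higher in both Rg3 libraries than in both controls. COL9A2 stood at 5.19 and 5.23 CPM with Rg3 and at 4.42 and 4.92 CPM in controls (log2 fold change 0.16, SE 0.21, and 0.094 without control replicate 1). COL9A3 stood at 5.75 and 4.48 CPM with Rg3 and at 4.22 and 4.39 CPM in controls (log2 fold change 0.25, SE 0.23, and 0.062 without Rg3 replicate 1), while their partner COL9A1 had no count in any library.

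COL18A1, a multiplexin of basement membranes whose C-terminal fragment is endostatin, had 40 and 25 counts with Rg3 and 45 and 53 in controls. Both Rg3 libraries lay below both controls, at a log2 fold change of −0.70 (SE 0.31, unadjusted p = 0.0573, edgeR adjusted p = 0.999). Of the membrane-spanning collagens only COL25A1 was tested, with 31 and 39 counts with Rg3 and 16 and 29 in controls (log2 fold change 0.57, SE 0.42, between 0.20 without Rg3 replicate 2 and 1.001 without control replicate 2). After scaling, its lower Rg3 library (1.01 CPM) lay below its higher control (1.10 CPM). COL17A1, the hemidesmosome collagen of stratified epithelia, was not detected, and COL13A1 had 1 count in all.

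In all, 3 of the 20 tested chains were higher in both Rg3 libraries than in both controls, namely COL11A2, COL9A2 and COL9A3, where 15.3% of all genes tested were. On the other side were 6 chains, COL5A2, COL4A5, COL4A6, COL6A2, COL16A1 and COL18A1, where 17% of all genes tested were. The other 11 overlapped. None of the 9 passed the test with all 4 libraries, and the chains were read off after the filter, so these counts only describe which chains separate.

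The libraries of the Rg3 group differed from each other in the collagen chains. Over the 20 chains the median log2 difference of Rg3 replicate 1 minus Rg3 replicate 2 was 0.29, against −0.01 over all genes tested, and 13 of the 20 (65%) were higher in Rg3 replicate 1, as were 48.9% of all genes. The median of control replicate 1 minus control replicate 2 was −0.10 over the chains and 0.00 over all genes. In size the difference had a median of 0.36 between the Rg3 libraries and 0.23 between the controls over the chains, and of 0.29 and 0.14 over all genes. COL1A1 (2.89-fold), COL6A2 (2.19-fold), COL6A1 (2.03-fold), COL7A1 (1.95-fold) and COL27A1 (1.55-fold) were more than 1.5-fold higher in Rg3 replicate 1, and only COL25A1 (0.622-fold) was as far on the other side. Over all 16323 genes tested, 1817 were more than 1.5-fold higher in Rg3 replicate 1 and 1216 in Rg3 replicate 2. A total of 5 chains (25%) had Rg3 replicate 1 as the highest and Rg3 replicate 2 as the lowest of the 4 libraries, where 15.9% of all genes tested did. Taken library by library, the chains' median log2 difference was 0.14 and −0.10 for Rg3 replicate 1 against control replicates 1 and 2, and −0.22 and −0.18 for Rg3 replicate 2 against the same controls.

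**Figure D4:**
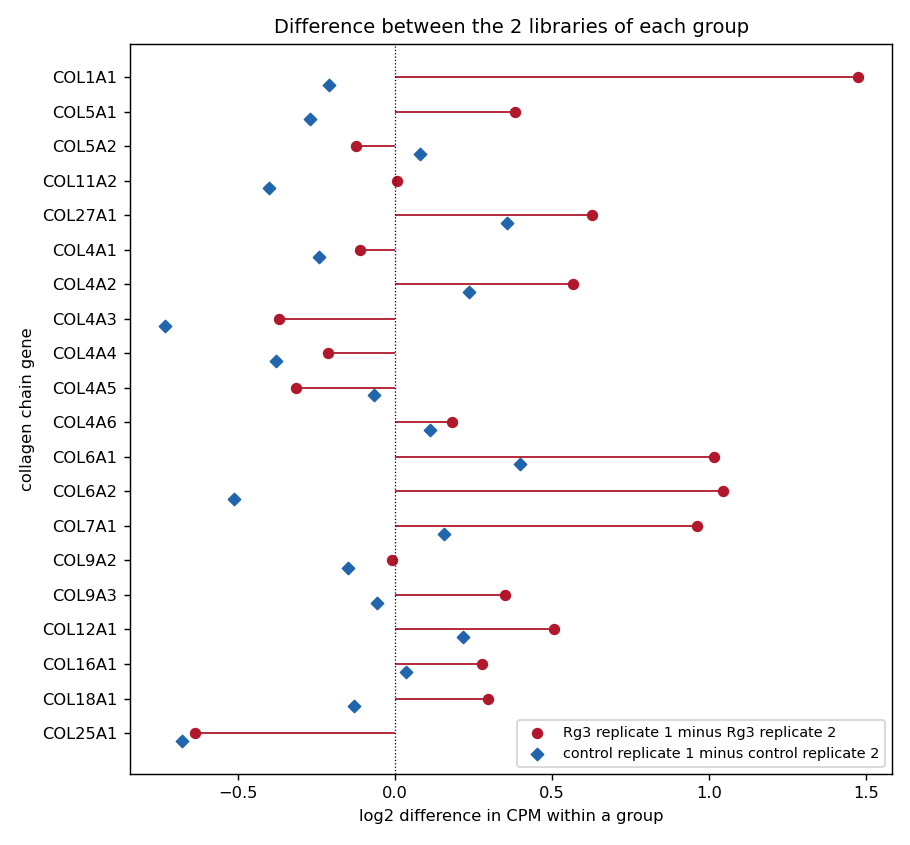
Log2 difference in CPM between the 2 libraries of a group for the 20 tested chains, for Rg3 (red circles) and control (blue diamonds). COL1A1, COL6A1, COL6A2 and COL7A1 lie near or above 1 for Rg3, while the controls stay between −0.73 and 0.40.

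Enzymes and partners of collagen were read from the same fit, in 5 lists. None of the 53 members tested was called in either direction with all 4 libraries, by edgeR or DESeq2 (edgeR: 2 members at an unadjusted p under 0.05, 1 higher and 1 lower, where 1.83% and 2.9% of all genes were). Members were called only in fits with 1 Rg3 library left out. Without Rg3 replicate 1, where 2.69% of all genes were called lower, these were FKBP10, PCOLCE, DDR1, MRC2, LAMB2, LAMB3, LAMA5, HSPG2 and AGRN, all lower. Without Rg3 replicate 2, where 1.8% of all genes were called higher, they were LAMA1, LAMA5, HSPG2 and AGRN, all higher. For the modification of proline and lysine, 12 of 14 genes were tested, 6 above and 6 below 0, with a median log2 fold change of 0.02. P4HB, the disulfide isomerase that is also a subunit of prolyl 4-hydroxylase, stood at 622 and 628 CPM with Rg3 and at 583 and 635 CPM in controls. Of the prolyl 3-hydroxylase genes, LEPREL1 was at a log2 fold change of 0.25 (SE 0.20), and LEPREL2, with 6 to 14 counts per library, at 0.56 (SE 0.51). LEPRE1 and LEPREL4 of the same family were at −0.0064 (SE 0.13) and −0.13 (SE 0.15).

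For folding and secretion all 10 genes were tested, 5 above and 5 below 0, with a median of 0.01. PPIB, a prolyl isomerase of the endoplasmic reticulum, stood at 579 and 718 CPM with Rg3 and at 536 and 656 CPM in controls. FKBP10, a collagen chaperone, stood at 133 and 108 CPM with Rg3 and at 160 and 144 CPM in controls, without overlap (log2 fold change −0.33, SE 0.15, unadjusted p = 0.066). CTAGE5, which takes part in loading procollagen for export, had a log2 fold change of −0.20 (SE 0.15).

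Procollagen cleavage and cross-linking had 11 of 14 genes tested, 7 above and 4 below 0, with a median of 0.08. SPARC, a collagen-binding matrix glycoprotein, stood at 53.0 and 54.8 CPM with Rg3 and at 62.4 and 73.4 CPM in controls, without overlap (log2 fold change −0.33, SE 0.14, unadjusted p = 0.0496, edgeR adjusted p = 0.999). PCOLCE, which enhances the removal of procollagen C-propeptides, stood at 29.2 and 24.0 CPM with Rg3 and at 31.6 and 36.3 CPM in controls (log2 fold change −0.35, SE 0.16). Of the receptors 7 of 11 were tested, 2 above and 5 below 0, with a median of −0.07. ITGB1, the beta subunit of the collagen-binding integrins, stood at 187 and 237 CPM with Rg3 and at 221 and 201 CPM in controls. Among the collagen receptor kinases the log2 fold change was −0.27 (SE 0.18) for DDR1 and −0.08 (SE 0.13) for DDR2.

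The basement membrane partners of type IV collagen had 13 of 15 genes tested, 7 above and 6 below 0, with a median of 0.01. LAMC1, the laminin gamma 1 chain, stood at 279 and 241 CPM with Rg3 and at 260.4 and 258 CPM in controls. LAMA1, the laminin alpha 1 chain, stood at 19.7 and 16.2 CPM with Rg3 and at 12.1 and 13.8 CPM in controls, without overlap (log2 fold change 0.46, SE 0.18, unadjusted p = 0.0336, edgeR adjusted p = 0.999). LAMB2, the laminin beta 2 chain, stood at 115 and 80.1 CPM with Rg3 and at 139 and 123 CPM in controls (log2 fold change −0.42, SE 0.19). The nidogens NID1 and NID2, which link laminin to type IV collagen, had 2 and 11 counts over all libraries.

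This list had the widest split between the Rg3 libraries, with a median of 0.49 for Rg3 replicate 1 minus Rg3 replicate 2. HSPG2 (perlecan), AGRN (agrin) and LAMA5, named after their values were seen, were called in opposite directions by the fits that left out 1 Rg3 library. With Rg3 replicate 1 left out, HSPG2, AGRN and LAMA5 had log2 fold changes of −0.76, −0.56 and −0.54 (edgeR adjusted p = 0.00529, 0.0258 and 0.0188). With Rg3 replicate 2 left out, the values were 0.58, 0.73 and 0.59 (edgeR adjusted p = 0.0151, 0.00444 and 0.0149). HSPG2 had 2128 and 657 counts with Rg3 and 1201 and 1159 in controls, the same order of libraries as COL7A1 and COL6A1 have in CPM.

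**Figure D5:**
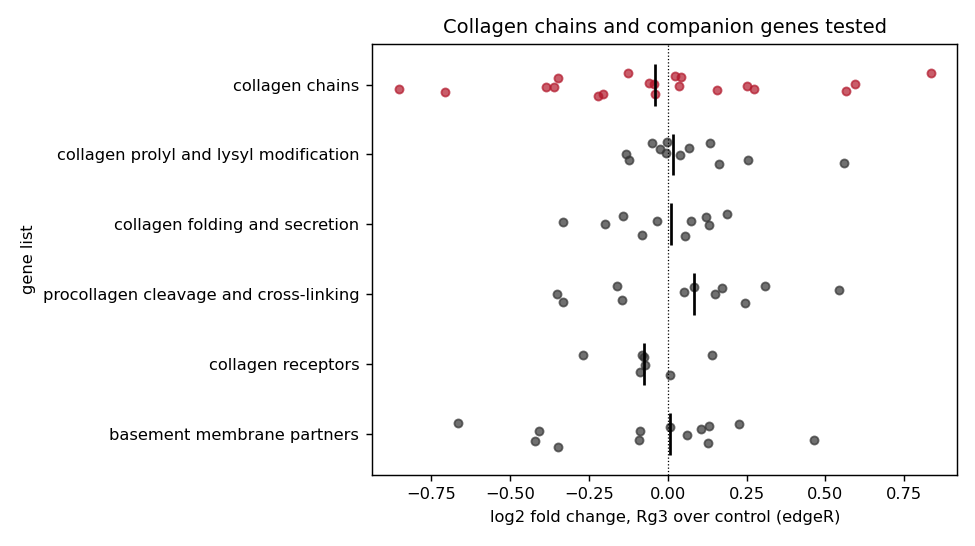
Log2 fold change of Rg3 over control from edgeR for the 20 tested collagen chains (red) and the 53 tested genes of 5 companion lists (grey), 1 point for each gene, with the median as a black line. The medians lie between −0.07 and 0.08, and no gene passed the test.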

How the data were processed

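RNA isolated with TRIzol was depleted of ribosomal RNA and fragmented before library construction, per the labels' protocols. The authors deposited one table of unnormalised read counts, with gene symbols in rows and libraries in columns. The genome build is GRCh37, per the submitters' processing notes. Which aligner, counter, annotation and strand setting were used is not given in the sources used here. Reads of overlapping antisense genes may therefore be included.

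For the test, edgeR 4.0.16 (R 4.3.3) was run with filterByExpr (minimum count 10, minimum total 15), TMM scaling and a quasi-likelihood fit of treatment alone. A gene was called where its p, adjusted by Benjamini-Hochberg over all genes tested, was under 0.05. Standard errors came from the F statistic, and 95% intervals from them. The fit was checked on simulated data only for the size of its log2 fold changes, with the same spread set for both groups. DESeq2 1.42.0, RLE size factors, no filter, a replicate block and leaving out each library were the alternatives. Within-group log2 differences used CPM + 0.1.

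All tested chains are named, in full where the mean was at least 1 CPM or the p among the 5 smallest. From each companion list came the gene of highest mean CPM and the 2 with the smallest p. Members and lists were chosen with earlier results of these data known. LEPRE1 and LEPREL4 were added beside LEPREL1 and LEPREL2. These symbols and CTAGE5 are the table's own. Promoters are RefSeq's, used for names and sequence only.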

Additional observations from a re-analysis of the deposited data

How the results depend on the processing

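The count of called chains changed only where a library or the filter was left out. Chains called higher and lower were 0 and 0 with all 4 libraries, with RLE size factors, with DESeq2 and with the replicate block. Without a low-count filter 1 chain (COL6A3) was called lower. Over the fits that each left out 1 library, 0 to 1 chains were called higher (COL1A1, without Rg3 replicate 2) and 0 to 3 lower (COL4A6, COL6A1 and COL7A1 without Rg3 replicate 1, and COL6A3 without control replicate 1). A group left with 1 library was assumed to vary like the other, with 1 residual degree of freedom. The groups did not vary alike, as the median size of the log2 difference within a group was 0.29 for Rg3 and 0.14 for control over all genes tested. Calls from fits without an Rg3 library thus rest on a narrower spread than the Rg3 group showed. Over all genes 5 were called higher and 0 lower (RLE size factors the same), against 90 and 124 without a filter, 37 and 17 with DESeq2, 69 and 86 with the replicate block, and 31 to 428 and 18 to 456 over the fits that left out 1 library. Same-numbered libraries deviated together at r = 0.21 across 16323 genes, but with a single pair of deviations the labels' numbers were not taken as a pairing. Under the block the log2 fold changes of COL7A1 and ITGB1 turned to −0.033 and −0.00019.

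Of 20 chains, 10 kept their sign in all 8 alternatives, and 10 turned when 1 library was left out. The left-out ranges of those were −0.31 to 0.19 for COL12A1, −0.38 to 1.15 for COL1A1, −0.076 to 0.55 for COL27A1, −0.069 to 0.16 for COL4A1, −0.28 to 0.28 for COL4A2, −0.71 to 0.060 for COL4A3, −0.23 to 0.15 for COL4A4, −0.33 to 0.054 for COL5A1, −0.64 to 0.38 for COL6A1 and −0.51 to 0.45 for COL7A1. Among companion genes they were −0.012 to 0.10 for P4HB, −0.040 to 0.28 for PPIB, −0.17 to 0.17 for ITGB1 and −0.10 to 0.11 for LAMC1. The cause of these turns was not tested. With SNORD3A and the mitochondrially encoded genes left out of the total, the collagen share was 0.214% and 0.170% in the Rg3 libraries and 0.214% and 0.199% in the controls. The planned order of chains per coding length was not run. Depth limits chains with few counts, and the spread between the Rg3 libraries limits some with many, such as COL6A1 and COL7A1.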
